A study of Drosophila melanogaster with 12 samples.

Results

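The 10 genes described here act in the making, activation, storage and burning of fatty acids in S2 cells, a Drosophila line that derives from embryos and resembles macrophages. They were taken by symbol from a table of 16718 genes, and all 10 were present. SREBP and SCAP form the regulatory axis of lipid synthesis, and ATPCL, AcCoAS and ACC supply its carbon. CG3961 encodes an acyl-CoA synthetase, mdy and Lsd-2 act in fat storage, bmm in lipolysis and whd in the transport of fatty acids for oxidation. CG3961 was put on the list with its lower counts in row RNAi and double RNAi cells already known. Each contrast holds libraries that entered that choice, so the values of CG3961 are a description throughout, with no test. The other 9 genes stand for the steps of the pathway.

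The cells formed 4 groups, with 3 libraries in each. Row RNAi cells had received double-stranded RNA (dsRNA) against row, which encodes a zinc finger protein that works with the heterochromatin protein HP1c. BEAF-32 RNAi cells had received dsRNA against BEAF-32, which encodes a DNA-binding boundary (insulator) protein. Double RNAi cells had received dsRNA against both genes, and control cells had received no treatment. The protocols in the labels give a first dose of 4 µg dsRNA per ml, a second dose of 8 µg per ml on diluted cells, and an interval of 2 days after each before the next step or the harvest. No group had received dsRNA of unrelated sequence, so in a comparison with control the response to any dsRNA and the response to the knockdown cannot be told apart. The labels do not say that the 3 libraries of a group came from separate cultures, so p-values measure the spread between these libraries, which may be technical.

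In animal cells, fatty acid synthesis starts from acetyl-CoA, which ATP citrate lyase makes from citrate and acetyl-CoA synthetase makes from acetate. Acetyl-CoA carboxylase turns it into malonyl-CoA, the building block of fatty acid synthase. A free fatty acid must be joined to coenzyme A by an acyl-CoA synthetase before it can enter triacylglycerol, phospholipids or oxidation. In Drosophila, SREBP is a membrane-bound transcription factor that SCAP escorts to the Golgi for cleavage, and it drives genes of fatty acid synthesis in response to phospholipid rather than sterol levels. In the fly these pathways are best known from the fat body, the organ that stores triacylglycerol in lipid droplets.

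Expression was measured by 3' RNA-seq, which counts transcripts from their polyadenylated ends. The libraries held 2276507 to 3963412 counts over genes and detected 8574 to 9107 genes each. Values are given as CPM, the usual unit of counts scaled to the effective size of the library, and levels are compared within a gene only. Of the 2 targeted genes, row was at 22.3 to 33.1 CPM in row RNAi, 25.4 to 34.5 in double RNAi and 47.2 to 52.5 in control libraries. Its log2 change was -0.95 in row RNAi (adjusted p = 0.0379) and -0.71 in double RNAi (adjusted p = 0.202). BEAF-32 was at 14.9 to 24.7 CPM in BEAF-32 RNAi, 26.1 to 33.3 in double RNAi and 42.8 to 66.0 in control libraries. Its log2 change was -1.44 in BEAF-32 RNAi (adjusted p = 1.77e-04) and -0.93 in double RNAi (adjusted p = 0.0322). Without control replicate 1 or without control replicate 3, 1 of these 4 changes passed the threshold of 0.05 in place of 3. Of 10 markers of plasmatocytes, the macrophage-like blood cells of the fly, 9 were tested, and their summed level was 1860 to 1970 CPM in row RNAi, 1709 to 1856 in BEAF-32 RNAi, 1637 to 1911 in double RNAi and 1979 to 2047 in control libraries. Fat body markers summed to at most 6.59 CPM, and Lsp1alpha, Lsp1beta, Lsp2, Fbp1 and Fbp2 had 0 counts in all libraries. Summed lamellocyte markers reached 533 to 664 CPM in row RNAi, 518 to 620 in BEAF-32 RNAi, 581 to 712 in double RNAi and 473 to 503 in control libraries. From the plasmatocyte list, He had a log2 change of -1.96 in row RNAi (edgeR adjusted p = 0.0484). From the lamellocyte list, shot had 0.63 in double RNAi (edgeR adjusted p = 0.0114). Of all these markers, 0 others passed the threshold against control. Both sums differed between every dsRNA group and control without overlap, but the plasmatocyte markers did not move together. Of the 9 tested, 3 lay above 0 and 6 below in row RNAi and in double RNAi. In BEAF-32 RNAi, 5 lay above and 4 below. Of 6 lamellocyte markers, 4 had enough counts to test, and these lay above 0 in all 3 comparisons with control. Among all tested genes, the share below 0 was 51% in row RNAi and 50.1% in BEAF-32 RNAi and double RNAi. Single tested genes did not overlap control in 11.8% of cases in row RNAi, 10.2% in BEAF-32 RNAi and 13.1% in double RNAi. The part of either list in the lipid gene values was not tested.

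CG3961 was the member that separated the libraries by row dsRNA. It had 220, 231 and 217 CPM in row RNAi libraries and 195, 203 and 248 CPM in double RNAi libraries. It had 318, 330.0 and 280.1 CPM in BEAF-32 RNAi libraries and 336, 299.5 and 323 CPM in control libraries. All 6 libraries with row dsRNA (194.9 to 247.7, median 218.8 CPM) lay below all 6 without it (280.1 to 335.9, median 320.6 CPM). Among all 7377 tested genes, 0.461% separated in this way and direction. The gene lies on chromosome arm 3L, minus strand, and overlaps no other annotated gene.

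Set against control, the CG3961 log2 fold change was -0.52 in row RNAi (SE 0.10), or 1.43-fold lower, and -0.56 in double RNAi (SE 0.10), or 1.48-fold lower. The comparisons share the control libraries. Against BEAF-32 RNAi cells, which had also received dsRNA, it was -0.47 in row RNAi and -0.52 in double RNAi. The row RNAi and double RNAi libraries form the low side of all these values and led to the choice of the gene. The values therefore carry no test here, and the part of a response to any dsRNA was not tested. The double RNAi library with the highest CG3961 level, replicate 3, was also the deepest of the 12 libraries. Without it the log2 fold change in double RNAi was -0.69. In such bulk samples, fewer cells of a type and less RNA per cell cannot be told apart.

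**Figure D1:**
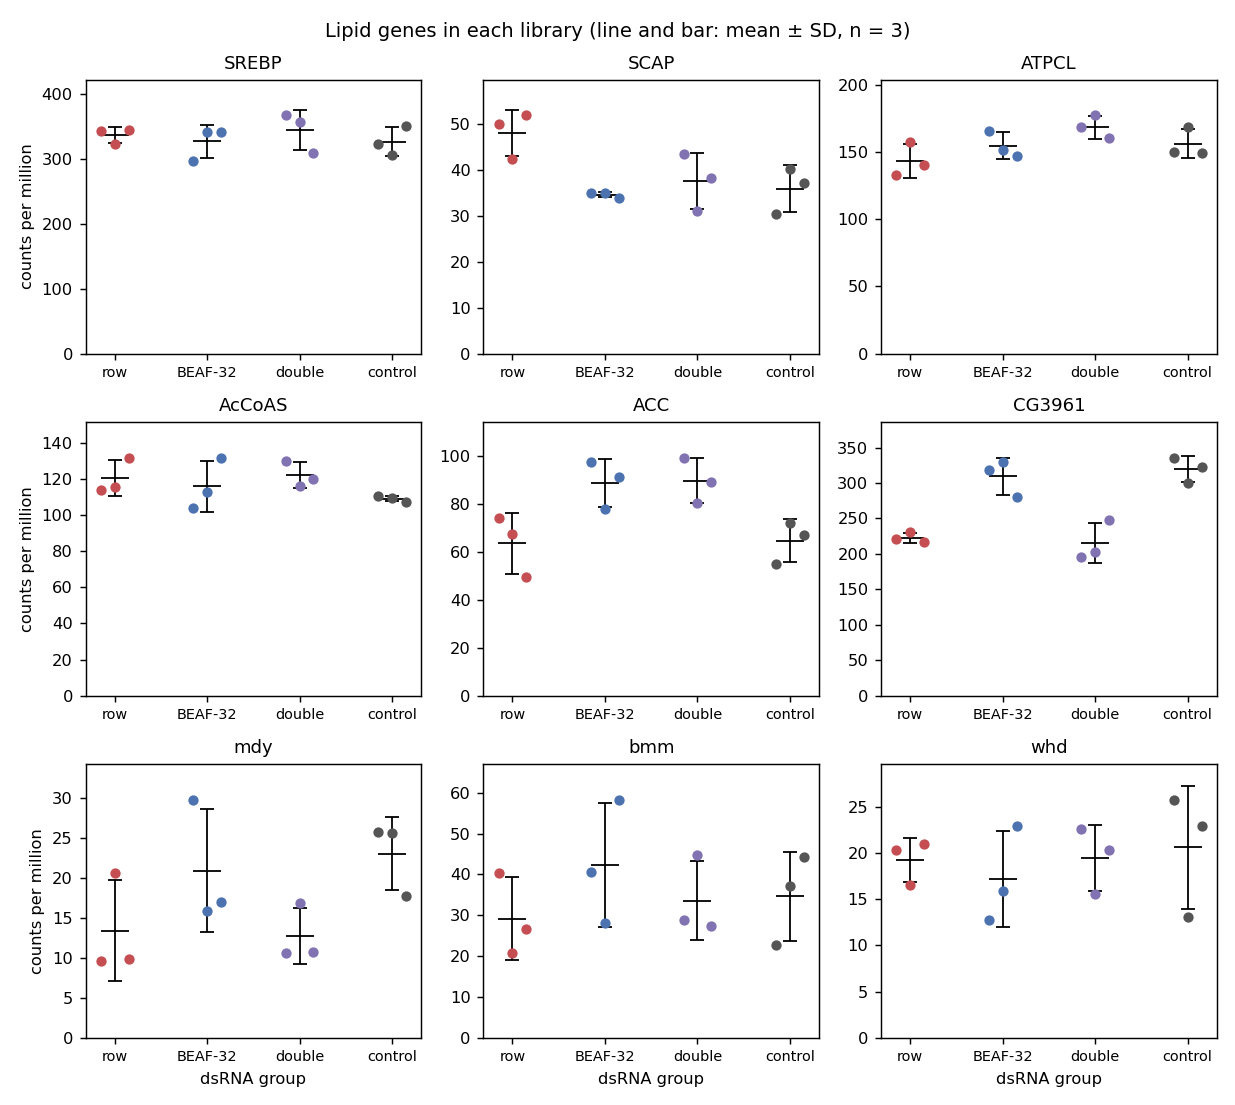
Level of the 9 tested genes in every library (CPM, a panel per gene with its own axis starting at 0; Lsd-2 is not drawn). Points are libraries, and the line and bar are the mean and SD (n = 3) of row RNAi, BEAF-32 RNAi, double RNAi and control. CG3961 lies lower in the 6 libraries with row dsRNA (at most 247.7 CPM) than in the 6 without (at least 280.1 CPM), and ACC lies higher in the 6 libraries with BEAF-32 dsRNA (at least 77.7 CPM) than in the 6 without (at most 73.9 CPM).

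The BEAF-32 RNAi libraries were not part of that choice, but the control libraries they are set against were. BEAF-32 RNAi cells averaged 309 ± 26.1 CPM and control cells 319.6 ± 18.5 CPM (SD, n = 3 each). The log2 fold change was -0.05 (95% confidence interval -0.25 to 0.15). Double RNAi cells averaged 215 ± 28.4 CPM and row RNAi cells 222.7 ± 6.99 CPM (SD, n = 3 each), a log2 fold change of -0.04 (interval -0.25 to 0.16). The interaction, that is the departure of double RNAi from the sum of both single changes on the log2 scale, was 0.00 (SE 0.14, interval -0.28 to 0.29). Row RNAi and double RNAi were both chosen as low, so their likeness and this interaction are no independent result. The intervals given for CG3961 are likewise a description and no test.

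The 8 other members that passed the filter on low counts gave 0 calls in each of the 9 comparisons fitted with edgeR. The background share of called genes among all 7377 tested was 0.19% for row RNAi, 0.0271% for BEAF-32 RNAi and 0.271% for double RNAi against control. It was 0.339% for row RNAi against BEAF-32 RNAi, 0.122% for double RNAi against BEAF-32 RNAi and 0% for double RNAi against row RNAi. It was 0.583% for the row dsRNA main effect, 0.0949% for the BEAF-32 dsRNA main effect and 0% for the interaction. A main effect here is the mean of the 2 groups with a dsRNA minus the mean of the 2 groups without it, 6 libraries against 6. At an unadjusted p under 0.05, 1 of the 8 genes differed in row RNAi (background 5.73%), 1 in BEAF-32 RNAi (5.18%) and 2 in double RNAi (8.63%) against control. DESeq2 and limma-voom also called 0 of the 8 in these 3 comparisons. The median log2 change of the 8 was -0.06 in row RNAi, -0.01 in BEAF-32 RNAi and 0.07 in double RNAi, against -0.00 over all tested genes in each. Of the 8, 2 had groups that did not overlap with control in row RNAi (background 11.8%), 1 in BEAF-32 RNAi (background 10.2%) and 3 in double RNAi (background 13.1%).

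**Figure D2:**
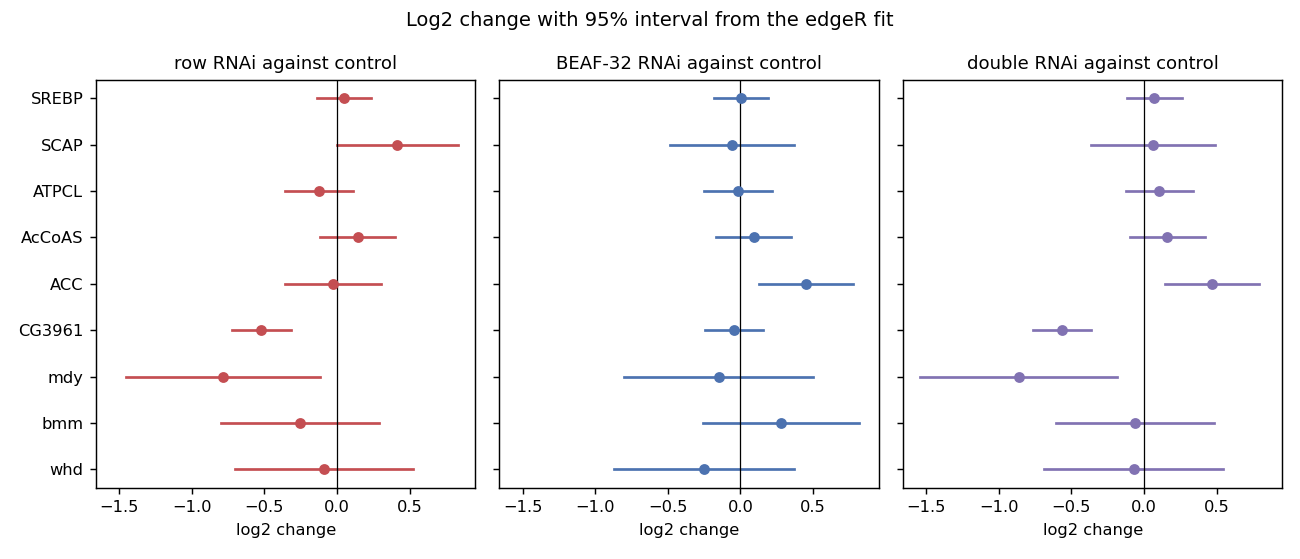
Log2 fold change of the 9 tested genes in row RNAi, BEAF-32 RNAi and double RNAi cells against control, with 95% confidence intervals from the edgeR fit. The comparisons share the control libraries. CG3961 lies at -0.52, -0.05 and -0.56, ACC at -0.03, 0.45 and 0.47, and mdy at -0.79, -0.15 and -0.86. SREBP lies at 0.05, 0.00 and 0.07. CG3961 was chosen on values from these libraries, so its intervals are a description with no test.

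In the regulatory axis, SREBP had the narrowest intervals of the list. It had 343, 323 and 344 CPM in row RNAi, 297, 342 and 341 in BEAF-32 RNAi, 367, 356 and 309 in double RNAi and 323, 306 and 350.0 in control libraries. All groups overlapped. The log2 changes against control were 0.05, 0.00 and 0.07 (SE 0.09 each), and the highest upper bound of the 3 intervals was 0.26. For the row dsRNA main effect the interval was -0.07 to 0.19, and for the BEAF-32 dsRNA main effect -0.12 to 0.15. A transcript-level measurement does not follow SREBP cleavage, which is the step that activates the protein.

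SCAP, the escort of SREBP, had 49.9, 42.4 and 51.9 CPM in row RNAi libraries, against 30.4, 40.3 and 37.2 CPM in control libraries. The lowest row RNAi library lay just above the highest control library, as in 5.69% of tested genes in that direction. The log2 fold change in row RNAi was 0.42 (SE 0.21, interval -0.00 to 0.84) and did not pass the test (edgeR adjusted p = 0.850). SCAP averaged 37.6 ± 6.16 CPM in double RNAi, 34.7 ± 0.555 CPM in BEAF-32 RNAi and 35.9 ± 5.08 CPM in control cells (SD, n = 3 each). The double RNAi libraries, at 43.4, 31.1 and 38.4 CPM, overlapped both the row RNAi and the control libraries, with a log2 change of 0.06 against control (SE 0.21) and -0.35 against row RNAi (SE 0.21, adjusted p = 0.885). The interaction was -0.30 (SE 0.30) and did not pass the test either (adjusted p = 1.00).

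Among the synthesis enzymes, ACC was the member with the most separated values after CG3961. This gene encodes acetyl-CoA carboxylase, the committed step of fatty acid synthesis. It had 97.4, 77.7 and 90.9 CPM in BEAF-32 RNAi libraries and 99.2, 80.4 and 89.2 CPM in double RNAi libraries. It had 73.9, 67.2 and 49.4 CPM in row RNAi libraries and 54.7, 71.8 and 67.1 CPM in control libraries. All 6 libraries with BEAF-32 dsRNA (77.7 to 99.2, median 90.1 CPM) lay above all 6 without it (49.4 to 73.9, median 67.1 CPM). In all, 0.122% of tested genes separated this way.

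The BEAF-32 dsRNA main effect on ACC was a log2 difference of 0.48 (SE 0.11, interval 0.25 to 0.70), or 1.39-fold. It had an unadjusted p of 1.07e-04 and an adjusted p of 0.0720 in edgeR, so it did not pass the threshold over all 7377 genes. Under the alternatives its adjusted p ran from 0.0299 to 0.470. It passed with no filter on low counts (0.0299) and without row RNAi replicate 1 (0.0443). Against control alone, BEAF-32 RNAi cells showed a log2 fold change of 0.45 (SE 0.16, interval 0.13 to 0.78, adjusted p = 0.848). Groups separated in that direction in 4.72% of tested genes. Double RNAi cells showed 0.47 (SE 0.16, adjusted p = 0.280), and row RNAi cells -0.03 (SE 0.16). ACC overlaps Nup44A, a nuclear pore gene on the opposite strand, and whether the counting used strand is not known from the sources used here. For Nup44A, the log2 fold change against control was 0.34 in BEAF-32 RNAi (SE 0.15, unadjusted p = 0.0261, adjusted p = 0.860), in the same direction as ACC. It was 0.04 in double RNAi (SE 0.15), and the main effect of BEAF-32 dsRNA was 0.06 (SE 0.11, adjusted p = 0.945). Whether the counts of ACC include reads of Nup44A was not tested.

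The enzymes that make acetyl-CoA differed less between groups. ATPCL (ATP citrate lyase) had 133, 158 and 140.0 CPM in row RNAi, 166, 152 and 147 in BEAF-32 RNAi, 168, 177 and 160.2 in double RNAi and 150.3, 169 and 149 in control libraries. The double RNAi libraries lay above the row RNAi libraries (as in 5.84% of tested genes), with a log2 difference of 0.23 (SE 0.12, adjusted p = 0.792), and overlapped the control libraries. AcCoAS (acetyl-CoA synthetase) had 114, 116 and 132 CPM in row RNAi, 104, 113 and 132 in BEAF-32 RNAi, 130.2, 116 and 120.1 in double RNAi and 110.5, 109.6 and 107 in control libraries. Every row RNAi and double RNAi library lay above the control libraries, by a log2 fold change of 0.14 and 0.16 (SE 0.13 each). Upward separation from control held for 5.69% of tested genes in row RNAi and 6.52% in double RNAi. The 3 control values lay close together (SD 1.58 CPM), and neither change passed the test. ATPCL also overlaps CG8320 and Tmem131 on the opposite strand, and its counts are uncertain to that extent.

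The storage gene mdy (midway), which encodes the diacylglycerol acyltransferase of the last step of triacylglycerol synthesis, had lower but scattered counts with row dsRNA. It had 9.66, 20.7 and 9.89 CPM in row RNAi libraries and 10.6, 16.8 and 10.8 CPM in double RNAi libraries. It had 29.8, 15.9 and 17.0 CPM in BEAF-32 RNAi libraries and 25.8, 25.6 and 17.7 CPM in control libraries. The double RNAi libraries lay below all control libraries, as in 6.6% of tested genes, while row RNAi replicate 2 lay inside the control range. The log2 fold change was -0.79 in row RNAi (SE 0.33, adjusted p = 0.739; -1.23 without row RNAi replicate 2) and -0.86 in double RNAi (SE 0.34, adjusted p = 0.465). The row dsRNA main effect was -0.75 (SE 0.24, interval -1.23 to -0.27) with an edgeR adjusted p of 0.158, and 0.0634 to 0.474 under the alternatives. These values rest on 24 to 82 counts per library, and mdy overlaps CG13280 and Cse1 on the opposite strand.

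Lsd-2, the perilipin of the fly that coats lipid droplets, was almost absent from the counts. It had 6 counts in BEAF-32 RNAi replicate 1, 2 counts in double RNAi replicate 3 and 0 in the other 10 libraries. In those 10 libraries a count of 0 allows a level of up to 0.927 to 1.33 CPM (3 counts of the library, counting error only). It was the 1 member that failed the filter on low counts, and no change in it was detectable at this depth.

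The genes of fat use varied between libraries of a group by more than between groups. The lipase bmm (brummer), the fly relative of adipose triglyceride lipase, had 40.3, 20.7 and 26.6 CPM in row RNAi, 40.5, 28.1 and 58.3 in BEAF-32 RNAi, 28.8, 44.6 and 27.3 in double RNAi and 22.8, 37.2 and 44.1 in control libraries. Its log2 changes against control were -0.25, 0.28 and -0.06 (SE 0.27 each). The gene whd (withered) encodes carnitine palmitoyltransferase I, which moves fatty acids into mitochondria. It averaged 19.3 ± 2.40 CPM in row RNAi, 17.2 ± 5.21 in BEAF-32 RNAi, 19.5 ± 3.59 in double RNAi and 20.6 ± 6.66 in control cells (SD, n = 3 each), with log2 changes of -0.09, -0.25 and -0.07 (SE 0.31 each). Intervals for whd reached from -0.87 to 0.55, so neither a loss nor a gain of moderate size was detectable. The whd counts may include reads of CG11777 and asRNA:CR45134, and those of SREBP reads of CG14102, since these genes overlap them.

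Beyond the members, 130 other genes of 9 lipid lists were in the table, 111 had counts and 89 were tested. Of these 89, 0 were higher and 0 lower past the threshold in row RNAi, in BEAF-32 RNAi or in double RNAi against control. The counts with DESeq2 and limma-voom were also 0. At an unadjusted p under 0.05 there were 4 of 89 in row RNAi (5.73% of all tested genes), 3 in BEAF-32 RNAi (5.18%) and 13 in double RNAi (8.63%). The lowest adjusted p was 0.678 in row RNAi, 0.877 in BEAF-32 RNAi and 0.183 in double RNAi. The 89 genes lay above 0 in 40 cases and below in 49 in row RNAi, 45 and 44 in BEAF-32 RNAi, and 36 and 53 in double RNAi. Of all tested genes, 51% lay below 0 in row RNAi and 50.1% in BEAF-32 RNAi and in double RNAi. Their median log2 change was -0.02, 0.00 and -0.03 in these comparisons, against -0.00 over all tested genes in each.

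**Figure D3:**
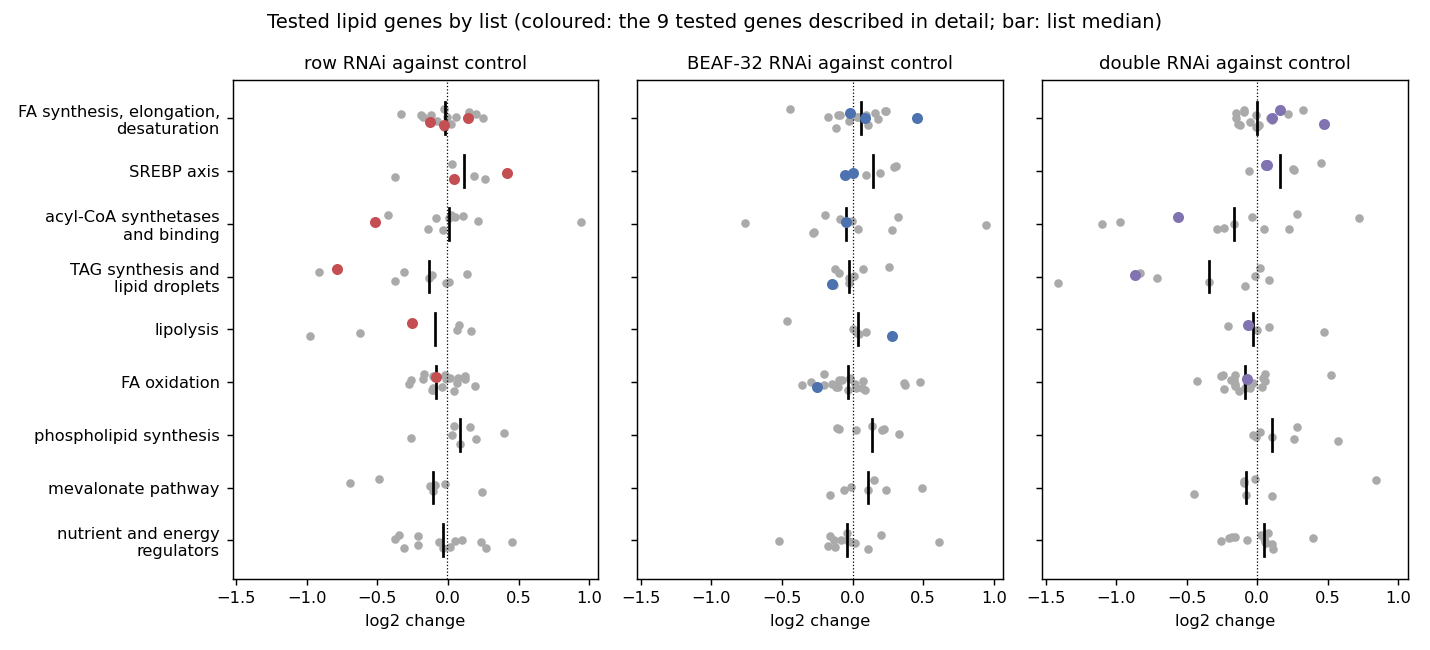
Log2 fold change of the tested genes of 9 lipid lists in row RNAi, BEAF-32 RNAi and double RNAi cells against control. Grey points are other genes of the list, coloured points are the 9 tested members, the short bar is the median of the list with its members, and the dotted line is the median of all tested genes. None of the 89 other genes passed the threshold in any of the 3 comparisons, and CG3961 (-0.52 and -0.56 in row RNAi and double RNAi) lies in the list of acyl-CoA synthetases.

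By list, the genes with the largest change in double RNAi cells, members left out, are given with values only, since none passed the test. In fatty acid synthesis, FASN1 (fatty acid synthase) averaged 246 ± 27.6 CPM in double RNAi and 197 ± 17.0 CPM in control cells (SD, n = 3 each), a log2 fold change of 0.33 (SE 0.11, adjusted p = 0.268). Zw, which encodes the NADPH-producing glucose-6-phosphate dehydrogenase, was at 0.22. Of the SREBP regulators, S1P, the first SREBP protease, was at 0.45 and the kinase Cdk8 at 0.26, both from at most 58 counts per library. In the oxidation list, CG7461 had 69.1 to 74.9 CPM in double RNAi and 95.3 to 99.8 CPM in control libraries, a log2 fold change of -0.43 (SE 0.16, adjusted p = 0.348). The peroxisomal acyl-CoA oxidase Acox57D-p was at 0.52. Of the 20 tested oxidation genes that are not members, 15 lay below 0 and 5 above in double RNAi cells, against 50.1% below among all tested genes. None of the 20 passed the test.

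Of the 10 tested genes of acyl-CoA synthesis and binding other than CG3961, 0 passed the threshold in row RNAi or double RNAi against control. Acsl, the long-chain acyl-CoA synthetase, averaged 69.2 ± 6.30 CPM in row RNAi, 77.9 ± 2.55 in BEAF-32 RNAi, 78.3 ± 15.6 in double RNAi and 64.1 ± 7.37 in control cells (SD, n = 3 each). Its log2 changes were 0.11, 0.28 and 0.28. CG18586 had 8.42 to 9.35 CPM in double RNAi and 17.0 to 20.9 CPM in control libraries, a log2 fold change of -1.10 (SE 0.34, adjusted p = 0.183). Its row RNAi libraries, at 19.0 to 26.6 CPM, did not lie below control. It overlaps CG5568, another gene of this list, on the same strand, so the counts of both are uncertain. CG12512 averaged 9.03 ± 3.48 CPM in double RNAi and 17.5 ± 2.29 CPM in control cells (SD, n = 3 each), a log2 fold change of -0.97 (SE 0.37, adjusted p = 0.436). Of these 10 genes, 4 lay above 0 and 6 below in double RNAi, against 50.1% below among all tested genes.

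In triacylglycerol and droplet genes, Lsd-1, the other perilipin, had 7.09 to 15.8 CPM in double RNAi and 18.6 to 19.4 CPM in control libraries. Its log2 fold change was -0.83 (SE 0.37, adjusted p = 0.511). Seipin, which shapes lipid droplets at the endoplasmic reticulum, had 1.44 to 4.63 CPM in double RNAi and 4.93 to 8.75 CPM in control libraries, a log2 fold change of -1.41 (SE 0.70, adjusted p = 0.571). With mdy, 9 genes of this list were tested, of which 7 lay below 0 and 2 above in double RNAi, against 50.1% below among all tested genes. The split was 7 below and 2 above in row RNAi, and 6 below and 3 above in BEAF-32 RNAi. The double RNAi libraries lay below control without overlap for 4 of the 9, mdy among them, against 6.6% of all tested genes. In row RNAi and in BEAF-32 RNAi, 0 of the 9 separated from control in either direction. The summed level of the list was 313 to 362 CPM in double RNAi and 334 to 405 CPM in control libraries, which overlap. Seipin had only 5 to 11 counts per double RNAi library, and 0 of the 9 genes passed the test. Among lipases, PAPLA1, a phospholipase A1, had 76.2 to 101 CPM in double RNAi and 61.5 to 69.5 CPM in control libraries, a log2 fold change of 0.48 (adjusted p = 0.244). CG5966 had at most 19 counts in any library and was at -0.21.

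In phospholipid synthesis, Pis (phosphatidylinositol synthase) had 50.1 to 58.1 CPM in double RNAi and 31.2 to 38.3 CPM in control libraries, a log2 fold change of 0.57 (SE 0.20, adjusted p = 0.292). Cct1 (an enzyme of phosphatidylcholine synthesis) was at 0.29. In the mevalonate pathway, which in flies makes isoprenoids but no cholesterol, CG8239 averaged 21.1 ± 4.82 CPM in double RNAi and 11.7 ± 2.44 CPM in control cells (SD, n = 3 each), a log2 fold change of 0.84 (adjusted p = 0.496). Fpps (farnesyl diphosphate synthase) had 50.9 to 63.6 CPM in double RNAi and 73.1 to 86.5 CPM in control libraries, a log2 fold change of -0.45 (adjusted p = 0.348). Of the energy sensors, the kinase genes Tor and AMPKalpha were at 0.40 and -0.26 in double RNAi.

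Over the 12 libraries, Pearson's r of log2 CPM with CG3961 was 0.678 for mdy, -0.622 for AcCoAS, -0.534 for SCAP and -0.490 for SREBP. With group means removed, r was 0.056 for mdy, -0.493 for AcCoAS, -0.240 for SCAP, -0.530 for SREBP and -0.570 for bmm. These are descriptions over libraries that share their treatment groups. Over 5993 tested genes with a mean of at least 10 CPM, the 5 whose pattern was most like that of CG3961 were CG9471 (r = 0.916), rdgBbeta (0.908), l(3)neo38 (0.893), CG6310 (0.888) and Nf-YC (0.865). With group means removed their r was 0.652, 0.677, 0.832, 0.683 and 0.647. The choice by r over the same 12 libraries favours high values here too, so these are a description. CG6310, for example, averaged 113 ± 9.74 CPM in row RNAi, 154.9 ± 8.43 in BEAF-32 RNAi, 125 ± 15.4 in double RNAi and 164 ± 25.1 in control cells (SD, n = 3 each). Nf-YC, a subunit of the CCAAT-binding factor, averaged 23.2 ± 0.785 CPM in row RNAi, 35.8 ± 7.69 in BEAF-32 RNAi, 25.4 ± 3.65 in double RNAi and 32.4 ± 2.49 in control cells (SD, n = 3 each).

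**Figure D4:**
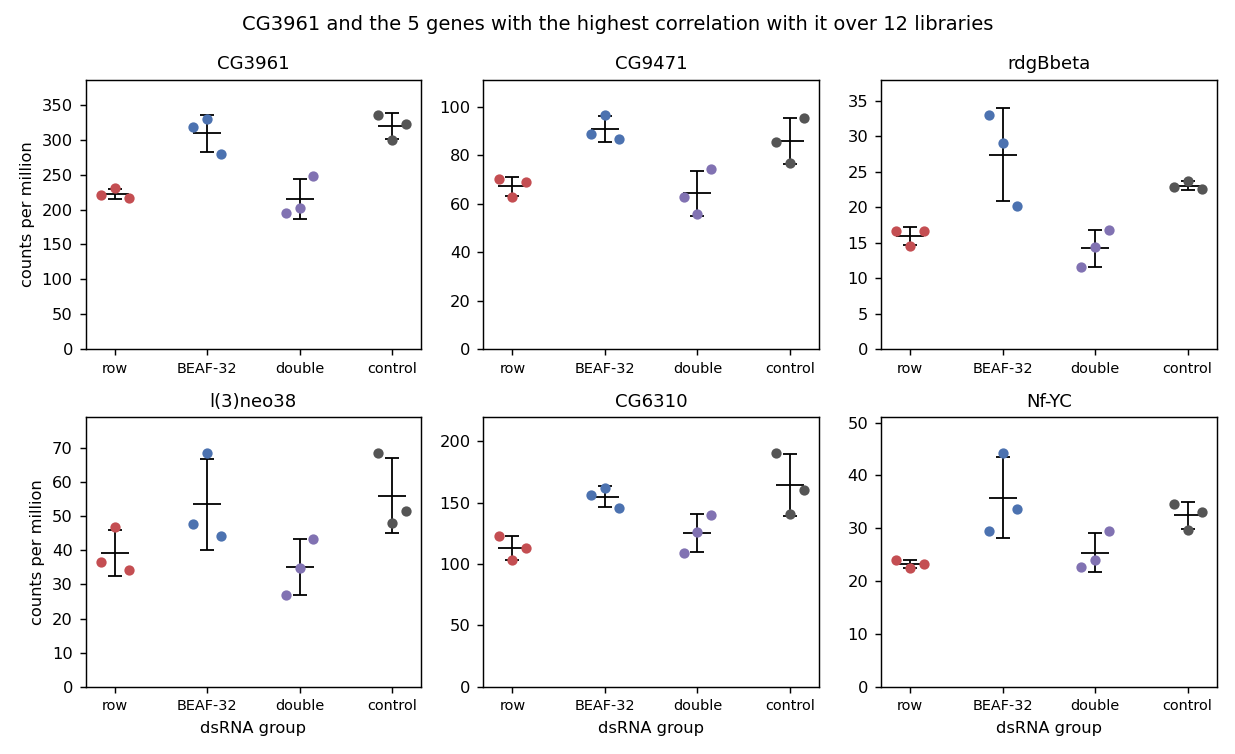
Level of CG3961 and the 5 genes most like it in every library (CPM, a panel per gene with its own axis starting at 0), with the mean and SD (n = 3) of row RNAi, BEAF-32 RNAi, double RNAi and control. The 5 genes were chosen by their correlation with CG3961 (r of 0.865 to 0.916), so their lower means with row dsRNA are a description.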

How the data were processed

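The table the authors deposited holds raw counts for each gene and library, not normalized. The submitters' processing notes name STAR, without a version, and the build dm3. How genes were annotated and counted, whether strand was used and how molecular identifiers were treated was not given in the sources used here. No coordinates are printed. Names and overlaps of genes come from the annotation BDGP6.54, another build.

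The analysis used edgeR 4.0.16 in R 4.3.3. After filterByExpr (minimum count 10, by group) 7377 genes remained, and TMM factors were 0.962 to 1.05. A robust quasi-likelihood model was fitted over all 12 libraries with no block (8 residual degrees of freedom). The Benjamini-Hochberg adjustment of p-values ran over all 7377 genes in each of 9 comparisons, with a threshold of 0.05. SE is the absolute log2 fold change over the square root of F. CPM use TMM-scaled totals. The test was also run on simulated data, and the share of known changes that it detected is not given here. Correlations between libraries were 0.950 to 0.962 within groups and 0.943 to 0.965 between groups, and no libraries of a group agreed within sampling noise.

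The 10 genes, the lipid lists and the marker lists were chosen with earlier results of these data known. The genes named were the members, both RNAi targets, any gene of a lipid list past the threshold against control, the 2 tested non-members of each list with the largest change in double RNAi, and the 5 most like CG3961. Acsl was named in addition, for its function, after its values were seen. Alternatives were DESeq2 size factors, library totals, no filter, a minimum of 10 CPM in 3 libraries, DESeq2 1.42.0 (Wald test), limma-voom (limma 3.58.1), a replicate block, only the groups compared, and leaving out each library.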

Additional observations from a re-analysis of the deposited data

How the results depend on the processing

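Of 31 single log2 changes followed through 454 alternatives, 25 alternatives turned a direction, and 19 changes kept their direction in every alternative run. The changes that turned had not passed the test, except that CG3961 in BEAF-32 RNAi carries no test here. CG3961 kept its direction in row RNAi and double RNAi against control in every alternative run: without each library in turn the changes ran from -0.57 to -0.48 and from -0.69 to -0.50. The ranges of the changes that turned, without each library in turn, were, in row RNAi against control, -0.15 to 0.13 (ACC) and -0.33 to 0.10 (whd). In BEAF-32 RNAi against control they were -0.042 to 0.068 (SREBP), -0.16 to 0.035 (SCAP), -0.065 to 0.045 (ATPCL), -0.0091 to 0.16 (AcCoAS), -0.096 to 0.020 (CG3961), -0.48 to 0.016 (mdy) and -0.028 to 0.51 (bmm). In double RNAi against control they were -0.043 to 0.18 (SCAP), -0.31 to 0.14 (bmm) and -0.32 to 0.12 (whd). SREBP in BEAF-32 RNAi was at -0.0068 with library totals, and whd in double RNAi at 0.0079 with limma-voom; the cause was not tested. The count of the 8 members past the threshold for the BEAF-32 dsRNA main effect was 0, but 1 (ACC) with no filter on low counts, and 0 to 1 without each library in turn (1 without row RNAi replicate 1). The 3 RNAi target changes past the threshold became 1 to 3 without each library in turn. All other counts of members and lipid genes past the threshold stayed at 0 in every alternative run. Over all genes, no filter on low counts gave 78 calls for the row dsRNA main effect in place of 43, 16 in place of 7 for the BEAF-32 dsRNA main effect, 54 in place of 25 for row RNAi against BEAF-32 RNAi and 23 in place of 9 for double RNAi against BEAF-32 RNAi. For this last comparison library totals and DESeq2 gave 19 and limma-voom 18; for the BEAF-32 dsRNA main effect library totals gave 3 and DESeq2 12. Without each library in turn, the calls against control ran from 4 to 19 in row RNAi (14 with all libraries; 4 without control replicate 3, 6, 7 and 8 without row RNAi replicates 2, 3 and 1), from 1 to 4 in BEAF-32 RNAi (2 with all; 1 without control replicate 3 or without BEAF-32 RNAi replicate 1 or 3, 4 without control replicate 2) and from 9 to 29 in double RNAi (20 with all; 9 without control replicate 3, 10 and 12 without double RNAi replicates 2 and 3). They ran from 8 to 33 for row RNAi and 4 to 24 for double RNAi against BEAF-32 RNAi, 0 to 2 for double RNAi against row RNAi, 27 to 60 for the row dsRNA main effect and 2 to 13 for the BEAF-32 dsRNA main effect. The replicate numbers did not pair the libraries: correlations of the deviations of same-numbered libraries ran from -0.12 to 0.06 in 18 pairs. With a replicate block, CG3961 was at -0.52 in row RNAi and -0.57 in double RNAi against control, ACC at 0.47 for the BEAF-32 dsRNA main effect (adjusted p = 0.0916), and 0 members were called; over all genes it gave 16 calls in place of 25 for row RNAi against BEAF-32 RNAi and 3 in place of 7 for the BEAF-32 dsRNA main effect. Depth limits Lsd-2; mdy, bmm and whd have wide intervals, and libraries of a group differed by more than counting error over all genes (chi-square per degree of freedom 3.74 to 6.68).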

Other observations

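The genes next to the members on the chromosome, looked up after the data had been seen and in an annotation of another build, gave no change past the threshold. CG3961 itself was at a log2 fold change of -0.52 in row RNAi and -0.56 in double RNAi against control. Ugt, the tested gene before it, was at 0.14 and 0.41 (adjusted p = 0.500 in double RNAi, edgeR). NijB, the tested gene after CG3961, was at 0.54 (SE 0.63) and -0.06 (SE 0.65), from a mean of 5.56 CPM. Next to ACC, whose main effect of BEAF-32 dsRNA was 0.48, CSN4 was at 0.21 and lig at -0.15 in the same contrast.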
